A study of Mus musculus with 6 samples.

Results

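The genes described here are 10 epithelial signals that act on intraepithelial lymphocytes, the T cells that live between the epithelial cells of the gut: the butyrophilin-like genes Btnl1, Btnl2, Btnl4 and Btnl6, the cytokine genes Il15, Il7 and Tslp, the receptor gene Il15ra, the chemokine gene Ccl25 and the adhesion gene Cdh1. They were found by gene symbol in the annotation of the array, which gave 10 probe sets out of 28350. Btnl4 and Btnl6 shared 1 probe set that named both, so neither was measured alone, and Ccl25 had 2 probe sets. The 10 genes were therefore read as 9 features among the 19934 tested, where each gene is represented by its brightest probe set.

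RNA came from whole epithelial preparations of the jejunum, the stretch of mouse small intestine between duodenum and ileum, and was hybridised to Affymetrix Gene 1.0 ST arrays. The 3 control mice had the genotype R26-M2rtTA, a doxycycline-dependent transactivator expressed from the Rosa26 locus. The 3 mice titled transgenic had the genotype TRE-MSI2::R26-M2rtTA, the same transactivator with a tetracycline-responsive transgene for MSI2, an RNA-binding protein of the Musashi family. Doxycycline was given to all 6 mice in their water over the last 24 hours, so the groups differed in the transgene and shared transactivator and drug, and the comparison asks what differs in the epithelium after a day of induction. Rosa26 is active in most cell types, so induction need not be restricted to epithelial cells, and no age or strain was given.

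Intraepithelial lymphocytes depend on their epithelial neighbours. Butyrophilin-like proteins on enterocytes select and maintain local gamma-delta T cells with particular V gamma chains. Epithelial IL-15 is carried to the cell surface by its own receptor chain, IL-15R alpha, and is presented in trans to lymphocytes that bear the IL-2/IL-15 receptor beta chain. CCL25 attracts cells with the receptor CCR9 to the small intestine, and E-cadherin, the product of Cdh1, is the ligand of the integrin alpha E beta 7 that holds them in the epithelium. IL-7 and TSLP are related cytokines that support lymphocytes through receptors sharing the IL-7 receptor alpha chain.

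The butyrophilin-like genes lie in a cluster on chromosome 17 of GRCm38.p6, between the class II histocompatibility genes and Notch4. From Btnl2 (chr17:34354789-34369492) through Btnl1 (chr17:34377123-34386162), Btnl4 (chr17:34468410-34477428) and Btnl6 (chr17:34507870-34518776) to the pseudogene Btnl7-ps this stretch, which holds a few other genes too, spans 194.5 kb. RefSeq promoter windows of 300 bases, 250 before and 50 after an annotated start, were at hand for 6 of the 10 genes. Those of Btnl1 (chr17:34376882-34377181, plus strand) and Btnl2 (chr17:34354572-34354871, plus strand) are shown because each of these neighbours had a probe set of its own. Capitals mark matches to 7 short motifs, searched on both strands. The letters were TATAAA for the TATA box that positions transcription starts. For HNF4, a nuclear receptor of enterocytes, they were CAAAGTC. For the intestinal identity factors of the CDX family the search used TTTATNG, where N is any base. For GATA factors, which set regional identity along the gut, it used AGATAA. For the E-box bound by helix-loop-helix and zinc finger factors it used CACCTG. The interferon element ISRE and the NF-kappaB site were searched as well.
Btnl1: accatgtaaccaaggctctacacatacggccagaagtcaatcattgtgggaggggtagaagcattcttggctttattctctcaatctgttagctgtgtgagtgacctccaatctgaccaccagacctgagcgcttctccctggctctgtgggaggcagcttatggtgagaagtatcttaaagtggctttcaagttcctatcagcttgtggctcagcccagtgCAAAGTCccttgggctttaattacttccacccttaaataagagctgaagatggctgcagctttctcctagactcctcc
Btnl2: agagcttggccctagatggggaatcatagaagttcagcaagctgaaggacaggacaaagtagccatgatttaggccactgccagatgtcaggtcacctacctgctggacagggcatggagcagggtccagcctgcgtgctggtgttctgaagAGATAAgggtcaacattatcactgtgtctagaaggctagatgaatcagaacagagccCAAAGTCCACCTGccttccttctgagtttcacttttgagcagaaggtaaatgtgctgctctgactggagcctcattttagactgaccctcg
The HNF4 letters stood in both windows, with their first base at -28 in Btnl1 and at -41 in Btnl2 from the start site. They are found in 4.44% of all 32851 promoter windows. Btnl2 also held the GATA letters at -98 and the E-box letters at -34, which 11.2% and 20.2% of windows hold, and the E-box match directly follows the HNF4 match. ISRE and NF-kappaB matches, found in 3.44% and 0.411% of windows, stood in neither. A match describes letters and not binding.

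Btnl4 (chr17:34475888-34476187, minus strand) and Btnl6 (chr17:34517303-34517602, minus strand) are shown because a single probe set reads both. Capitals here mark bases that differ, or have no partner, in a global alignment of the pair.
Btnl4: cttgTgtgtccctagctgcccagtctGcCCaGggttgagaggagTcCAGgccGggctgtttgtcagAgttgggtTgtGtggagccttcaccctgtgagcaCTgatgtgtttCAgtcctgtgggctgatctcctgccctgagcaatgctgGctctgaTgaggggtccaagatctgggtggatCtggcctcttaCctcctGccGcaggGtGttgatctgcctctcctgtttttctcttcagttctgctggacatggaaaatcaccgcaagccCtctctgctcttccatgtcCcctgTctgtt
Btnl6: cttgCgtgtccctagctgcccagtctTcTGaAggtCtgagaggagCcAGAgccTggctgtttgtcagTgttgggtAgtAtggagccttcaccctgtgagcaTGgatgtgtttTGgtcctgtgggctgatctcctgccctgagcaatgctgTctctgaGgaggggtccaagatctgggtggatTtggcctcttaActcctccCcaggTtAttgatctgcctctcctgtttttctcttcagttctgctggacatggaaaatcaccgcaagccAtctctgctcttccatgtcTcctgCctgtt
The 2 windows were identical at 90.4% of 301 alignment columns, while the other pairs of butyrophilin-like windows had 46.5% to 51.8%. None of the 7 motifs matched in either window. Both windows lie inside the outer bounds of their genes, so other starts exist. Close relatives, the pseudogene Btnl5-ps among them, could share probes, and the values of single butyrophilin-like genes are uncertain to that extent.

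Ccl25 (chr8:4325205-4360020) has windows at 2 annotated starts, shown because its 2 probe sets gave opposite differences. The first is at chr8:4324960-4325259 and the second, 24378 bases downstream, at chr8:4349338-4349637, both on the plus strand, with motif matches in capitals.
Ccl25 first start: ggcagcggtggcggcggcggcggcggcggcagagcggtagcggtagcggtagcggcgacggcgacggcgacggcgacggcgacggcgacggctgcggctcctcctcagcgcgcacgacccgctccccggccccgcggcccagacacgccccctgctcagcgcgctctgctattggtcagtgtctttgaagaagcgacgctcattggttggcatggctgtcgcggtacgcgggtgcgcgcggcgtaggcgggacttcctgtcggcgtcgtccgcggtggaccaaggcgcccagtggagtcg
Ccl25 second start: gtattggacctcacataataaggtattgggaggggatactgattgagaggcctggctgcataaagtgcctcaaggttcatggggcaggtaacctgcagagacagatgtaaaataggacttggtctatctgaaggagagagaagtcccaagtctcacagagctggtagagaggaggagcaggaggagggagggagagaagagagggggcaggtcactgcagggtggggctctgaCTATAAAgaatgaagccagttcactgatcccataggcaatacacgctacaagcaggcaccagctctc
The first window had a GC content of 74.0%, shared 209 bases with the promoter window of Elavl1 on the opposite strand and held none of the 7 motifs. The second had a GC content of 51.7% and held the TATA letters at -16, overlapped on the other strand by the CDX letters at -17. Of all windows, 13.6% hold the TATA letters and 10.9% the CDX letters.

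Values are log2 expression, differences are transgenic minus control, and a gene is said to rise or fall where its adjusted p in limma was under 0.05 over the 19934 features. Array medians lay between 6.42 and 6.46 over all probe sets. The Msi2 probe set read 11.30, 9.53 and 9.32 in control replicates 1, 2 and 3 and 11.23, 10.58 and 11.44 in the transgenic arrays. Its adjusted p was 0.257, and 0.00958 when control replicate 1, which lay among the transgenic values, was left out, so directions below are drawn between arrays labelled transgenic and arrays labelled control. Msi1, the paralog, read 7.20, 7.97 and 7.62 in the controls and 13.44, 12.82 and 13.53 in the transgenic arrays. Its log2 difference was 5.66 (limma adjusted p = 0.000819), and it separated all arrays by label. The Musashi gene that followed the labels was thus Msi1 and not Msi2, the gene named in the genotype. The cause was not tested, and the differences below are not tied to MSI2 itself. Control replicate 1 correlated with the other controls by 0.978 and 0.979, against 0.996 between those, and the members' results are given without it where that changes a call. By Xist and Y-linked genes, control replicates 1 and 3 and transgenic replicate 3 were female, and with sex as a term none of the members passed in limma, while 6 had an unadjusted p under 0.05. Epcam, an epithelial surface protein, read 12.60 to 12.87 on all arrays and Krt8, a simple-epithelium keratin, 13.75 to 13.99. Both belong to a list of 12 epithelial markers, of which 4 fell and 2 rose, as given below. Lymphocyte transcripts were present as well, such as Ccl5 with a control mean of 11.21.

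Of the 9 features, 2 fell, 1 rose and 6 did not pass, against 18.6% of all features called, 9.65% falling and 8.96% rising. Their median log2 difference was -1.38, where the median of all features was 0.02. The 3 control and 3 transgenic values did not overlap for 5 of the 9, lower in 4 and higher in 1, against 37.0% of all features, with 17.5% lower and 19.5% higher. Ccl25 and the shared Btnl4/Btnl6 probe set fell and Cdh1 rose. The labels do not say what a replicate number shares, and p-values measure the spread between these mice. In RNA from bulk cells, fewer cells of a type and less RNA per cell cannot be told apart.

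**Figure D1:**
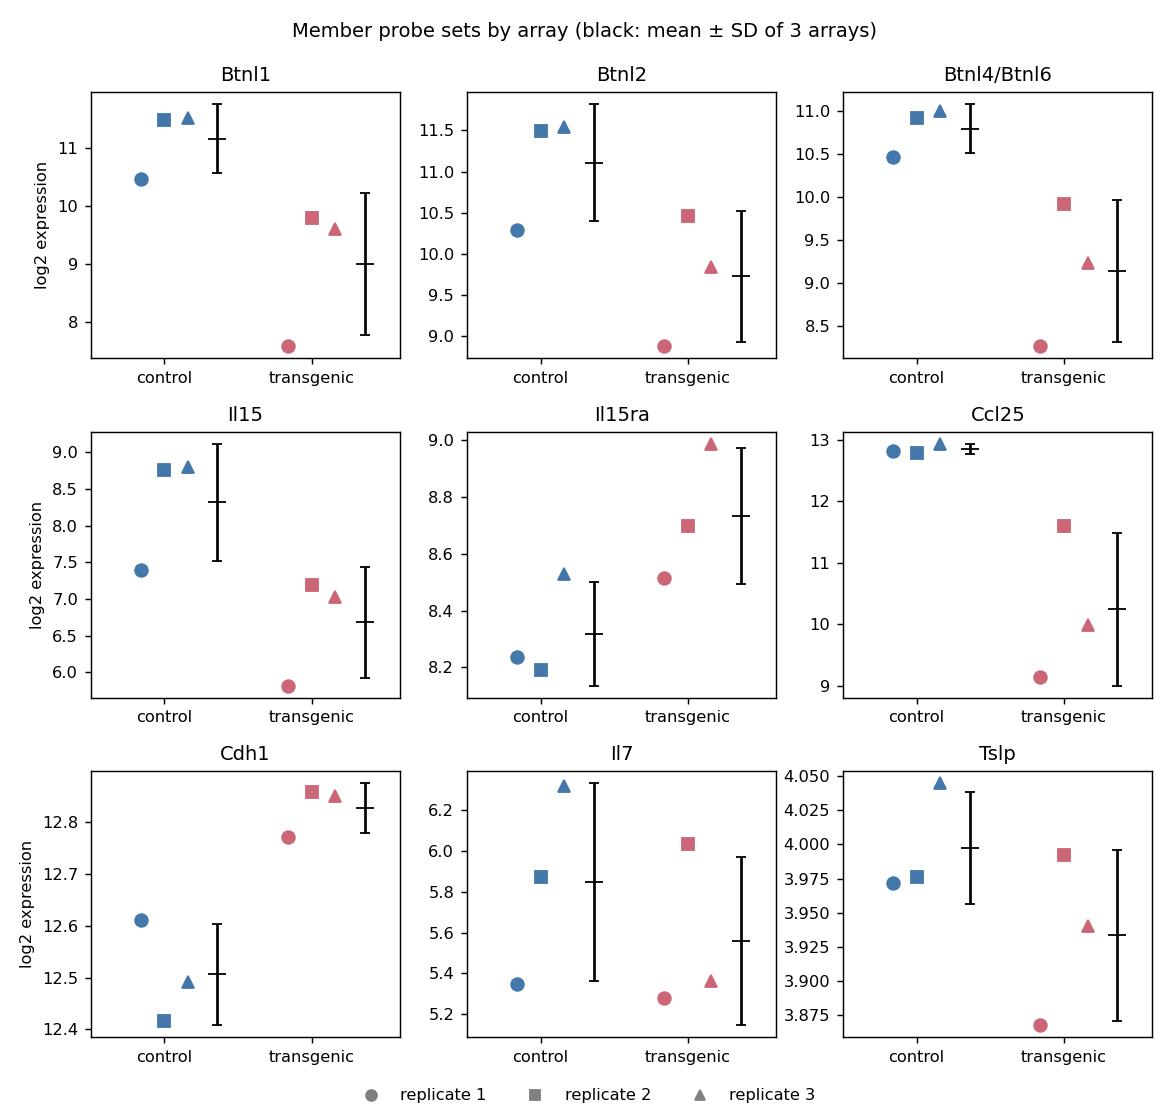
Log2 expression (vertical axes, separate scales) of the 9 features in control and transgenic arrays, 1 symbol per array with its shape giving the replicate number, and mean ± SD in black. Ccl25, Btnl1, Btnl4/Btnl6 and Il15 have every transgenic value below every control value, Cdh1 has the reverse, and the other 4 features overlap.

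Read by its brightest probe set, Ccl25 had the largest difference of the 9 features. This probe set read 12.82, 12.79 and 12.93 in control replicates 1, 2 and 3 and 9.14, 11.60 and 9.99 in transgenic replicates 1, 2 and 3. The controls lay within 0.15 of each other, while the transgenic arrays spread widely and all lay below them. The mean was 10.24 ± 1.25 against 12.85 ± 0.08 (SD, n = 3 each), a 6.08-fold lower level with a log2 difference of -2.60 ± 0.58 (SE, limma adjusted p = 0.0307). The exact permutation p, two-sided here and throughout, was 0.1, the smallest that 3 against 3 arrays allow. By size of difference Ccl25 ranked 61st from the most negative of the 19934 features. The call was kept without control replicate 1 (adjusted p = 0.0404) and without transgenic replicate 2 (adjusted p = 0.00271). When control replicate 2 or 3 or transgenic replicate 1 or 3 was left out, it was lost (adjusted p = 0.1, 0.11, 0.0646 and 0.114).

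The other Ccl25 probe set went the other way. It lists the non-coding RefSeq transcript of the gene and a cDNA clone, whereas the brightest one also lists the coding transcript. It read 8.05, 7.87 and 7.78 in the controls and 8.50, 8.09 and 8.34 in the transgenic arrays, with no overlap between the groups. The log2 difference was 0.41 ± 0.13 (SE), and it did not pass in limma over all probe sets (adjusted p = 0.0914). The difference between the changes of both probe sets averaged -3.01 ± 1.45 (SD, n = 3) in the transgenic arrays and 0 ± 0.19 in the controls, and did not overlap (exact permutation p = 0.1). With both probe sets averaged, Ccl25 had a log2 difference of -1.10 (adjusted p = 0.0326), smaller in size than those of Btnl1, Btnl4/Btnl6, Il15 and Btnl2. The probe sets are not tied here to either start shown above, and the cause of their disagreement was not tested.

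**Figure D2:**
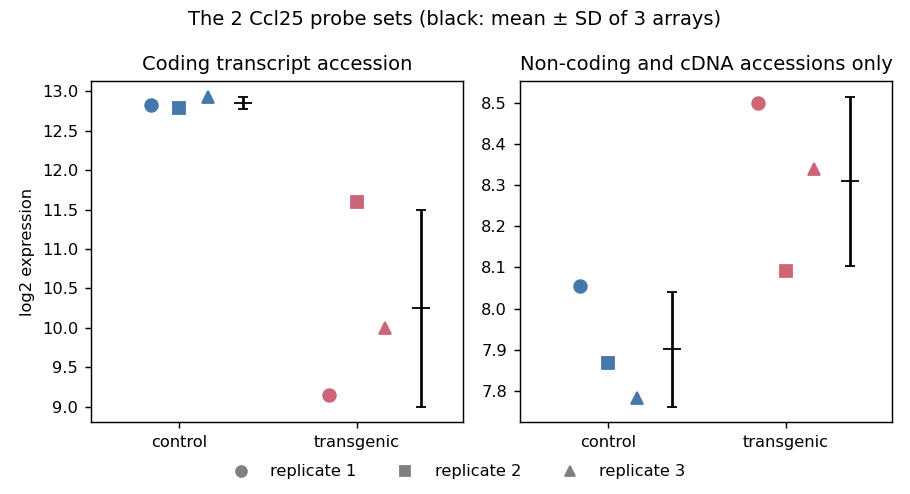
Log2 expression of the 2 Ccl25 probe sets (vertical axes, separate scales) by group, with 1 symbol per array and mean ± SD in black. The probe set that lists the coding transcript drops from about 12.85 to 10.24 on average, and the other moves from 7.90 to 8.31.

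The genes that receive the CCL25 signal or belong to the same class were followed in a list of 12 chemokine and receptor genes. In it 2 fell and none rose, with a median log2 difference of -0.03. The blocked fit called 3, as did the fit without control replicate 1, the addition being the chemokine gene Cx3cl1 at -0.81 (adjusted p = 0.143, 0.00726 with the block and 0.0336 without that array). With sex as a term 1 fell, and Ccl5 was lost (adjusted p = 0.065). Ccr9, the receptor for CCL25, fell by 1.60 on the log2 scale, with 7.77, 7.26 and 7.26 in the controls and 5.50, 6.42 and 5.57 in the transgenic arrays (adjusted p = 0.0167). Ccl5, a chemokine of cytotoxic lymphocytes, fell by 1.62 (adjusted p = 0.0264). Both calls were lost with 1 array left out, at adjusted p values of up to 0.0723 for Ccr9 and 0.101 for Ccl5, each without transgenic replicate 3, and neither gene passed without control replicate 2, control replicate 3 or transgenic replicate 1. Ccr9 and Ccl5 are transcripts of lymphocytes.

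The butyrophilin-like probe sets were all lower in the transgenic arrays, and 1 of the 3 passed. The shared Btnl4/Btnl6 probe set, read from 2 of the enterocyte surface proteins, gave 10.47, 10.92 and 10.99 in the controls and 8.26, 9.91 and 9.23 in the transgenic arrays. No transgenic value reached the lowest control, and the gap between the groups was 0.55. The log2 difference was -1.66 ± 0.41 (SE), 3.15-fold lower (limma adjusted p = 0.0406, exact permutation p = 0.1). It no longer passed when control replicate 2 or 3 or transgenic replicate 1 or 3 was left out (adjusted p = 0.132, 0.138, 0.0594 and 0.121).

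Btnl1, which encodes the partner that pairs with Btnl6 in the gut, read 10.47, 11.47 and 11.52 in the controls and 7.59, 9.80 and 9.61 in the transgenic arrays. The groups did not overlap, control replicate 1 was the lowest control and transgenic replicate 1 the lowest of all. The log2 difference of -2.15 ± 0.63 (SE, 4.44-fold) did not pass (limma adjusted p = 0.065, exact permutation p = 0.1). It passed with the replicate number as a block (adjusted p = 0.00728) and without control replicate 1, where the log2 difference was -2.49 (adjusted p = 0.044).

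Btnl2, described as an inhibitor of T cell activation, read 10.29, 11.49 and 11.54 in the controls and 8.88, 10.46 and 9.84 in the transgenic arrays. Here the groups overlapped, since control replicate 1 lay below transgenic replicate 2. The log2 difference of -1.38 ± 0.50 (SE) did not pass (limma adjusted p = 0.111, exact permutation p = 0.2). It passed with the replicate block (adjusted p = 0.00645) and without control replicate 1, at -1.79 (adjusted p = 0.034).

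Of 7 measured relatives of these genes, none was called in limma, and 1 had an unadjusted p under 0.05. That gene was Btnl5-ps, the transcribed pseudogene between Btnl4 and Btnl6, at -1.18 ± 0.40 (SE, adjusted p = 0.0925). It passed with the replicate block (adjusted p = 0.00795) and without control replicate 1 (adjusted p = 0.0486), and its 2 other probe sets were at -1.27 and -1.38. The other relatives had differences between -0.10 and 0.16. They include Btn1a1 and Btn2a2, of the mammary and antigen-presenting cell butyrophilins, and the erythroid gene Ermap. All Btn1a1 and Btn2a2 values lay within 4.07 to 5.06, the range of Xist and Y-linked probe sets in mice of the sex that lacks them. The probe sets of Btn1a1 and Btn2a2 therefore gave no measure of a difference.

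Il15, the cytokine that sustains CD8 and gamma-delta lymphocytes, followed the butyrophilin-like genes over the arrays, while its receptor did not. Il15 read 7.39, 8.76 and 8.80 in the controls and 5.82, 7.19 and 7.03 in the transgenic arrays. The groups did not overlap, with 0.20 between control replicate 1 and transgenic replicate 2. The log2 difference of -1.64 ± 0.51 (SE, 3.11-fold) did not pass (limma adjusted p = 0.076, exact permutation p = 0.1). It passed with the replicate block (adjusted p = 0.00299), and without control replicate 1 it was -2.10 (adjusted p = 0.0178).

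Il15ra, whose product carries IL-15 to the surface, read 8.24, 8.19 and 8.53 in the controls and 8.51, 8.70 and 8.99 in the transgenic arrays. Its values were higher on average, with a slight overlap between control replicate 3 and transgenic replicate 1. The log2 difference of 0.42 ± 0.15 (SE) did not pass (limma adjusted p = 0.117, exact permutation p = 0.2). The fit blocked on replicate number called it (adjusted p = 0.0313). Relative to the control means, the change of Il15 minus that of Il15ra was -2.05 ± 0.60 (SD, n = 3) in the transgenic arrays and 0 ± 0.74 in the controls, where control replicate 1 was lowest at -0.84. These values, computed after the single genes had been seen, did not overlap (mean difference -2.05, exact permutation p = 0.1).

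Among 11 measured receptors and signalling genes of the IL-15 and IL-7 family, 2 rose and 1 fell, and the median was 0.20. The kinase gene Jak2, at -0.59 (adjusted p = 0.269), passed with the replicate block (adjusted p = 0.0434) and without control replicate 1 (adjusted p = 0.0186), and Jak1, at 0.35, passed with the block (adjusted p = 0.0485). Socs1 and Socs3, inhibitors of cytokine receptor signalling, rose by 1.33 ± 0.16 (SE, adjusted p = 0.00641) and 2.33 ± 0.52 (adjusted p = 0.0306), and the dimmer probe set of Socs3 was at 0.73. Il2rb, the receptor chain through which lymphocytes sense IL-15, fell by 1.10, from 7.26, 6.85 and 6.81 in the controls to 5.57, 6.18 and 5.86 (adjusted p = 0.0169). Socs1 passed whichever array was left out. Socs3 was lost with sex as a term (adjusted p = 0.0732) and without control replicate 3 or any one transgenic array, at up to 0.114, and Il2rb without control replicate 2 or 3 or transgenic replicate 3, at up to 0.0718.

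Il7 read 5.35 to 6.32 in the controls and 5.28 to 6.03 in the transgenic arrays, and Tslp 3.97 to 4.04 and 3.87 to 3.99. Neither passed (adjusted p = 0.58 and 0.61), and the log2 differences were -0.29 ± 0.30 and -0.06 ± 0.07 (SE). Probe sets of Xist and 3 Y-linked genes read 4.07 to 5.06 in mice of the sex that lacks them. All Tslp values lay below that range, so the probe set gave no measure of a Tslp difference, and Il7 lay just above it.

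Cdh1, the epithelial cadherin that lymphocytes grip, rose slightly. It read 12.61, 12.42 and 12.49 in the controls and 12.77, 12.86 and 12.85 in the transgenic arrays, which sat close together and above every control. The log2 difference was 0.32 ± 0.08 (SE), 1.25-fold (limma adjusted p = 0.0432, exact permutation p = 0.1). The call was kept without control replicate 1 (adjusted p = 0.0229) and lost with the replicate block (adjusted p = 0.0718). It was also lost without each of the other arrays, at 0.145, 0.137, 0.1, 0.0882 and 0.136 without control replicates 2 and 3 and transgenic replicates 1, 2 and 3.

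Of 18 cadherins and adhesion partners, 1 rose and 3 fell, and the median was -0.04. With the replicate block 5 fell, among them the brush border cadherins Cdhr2 and Cdhr5 (adjusted p = 0.00784 and 0.0124, and 0.334 and 0.171 without the block). With sex as a term 1 fell. Itgae, the alpha E integrin chain that binds E-cadherin, fell by 1.85 ± 0.20 (SE, adjusted p = 0.00502), from 8.18 ± 0.28 to 6.33 ± 0.31 (SD, n = 3 each). Its partner chain Itgb7, outside the naming rule and chosen after its value was seen, fell by 0.48 (adjusted p = 0.0479), which was lost without any array but transgenic replicate 2 and reached 0.156 without control replicate 2. The junction gene Nectin1 fell by 0.77 (adjusted p = 0.0228, and up to 0.0916 without control replicate 2 or 3 or transgenic replicate 3), and Vcl, vinculin, rose by 0.58 (adjusted p = 0.00746). Itgae and Vcl passed whichever array was left out. The catenins Ctnna1 and Ctnnb1, which link E-cadherin to actin, had log2 differences of 0.26 and 0.19, neither of which passed (adjusted p = 0.115 and 0.135). All values of Cdh2 and Klrg1, also in this list, lay within 4.07 to 5.06, the range of absent transcripts, and gave no measure of a difference.

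**Figure D3:**
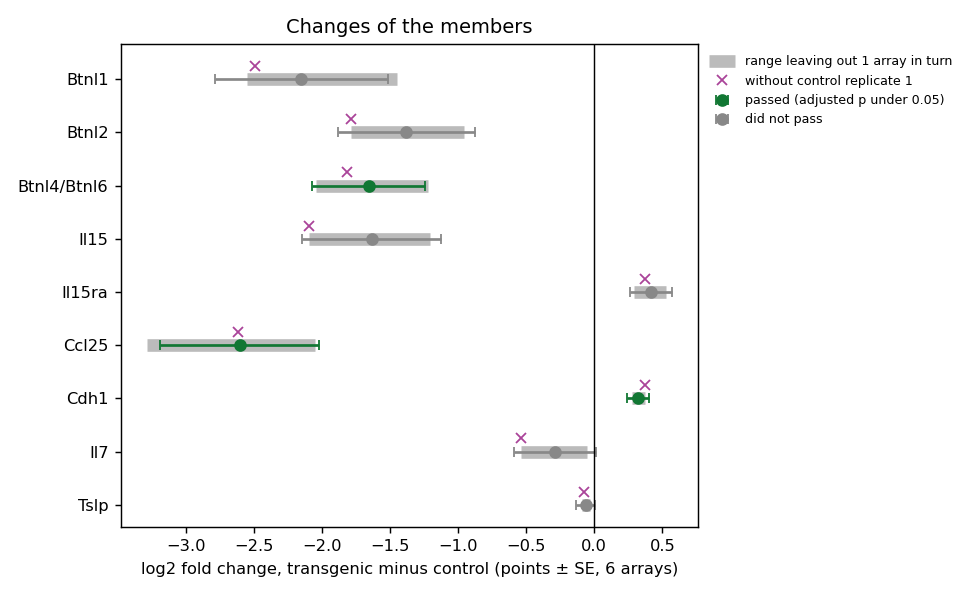
Log2 difference, transgenic minus control, of the 9 features with standard errors (points and thin bars), the range of estimates when 1 array at a time is left out (grey bars), and the estimate without control replicate 1 (crosses). Ccl25, Btnl4/Btnl6 and Cdh1 passed, and no estimate changes sign when 1 array is left out.

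Other surface and secreted signals to intraepithelial lymphocytes moved in both directions. Of 17 measured, 3 rose and 2 fell, and the median was 0.04. All values of Raet1d and H60b lay within 4.07 to 5.06, the range of absent transcripts, so their probe sets gave no measure of a difference. Tnfrsf14, the receptor HVEM that engages CD160 and BTLA on lymphocytes, fell by 2.12 ± 0.15 (SE, adjusted p = 0.00182). Itgb6, a subunit of an integrin that activates TGF-beta, rose by 2.09 (adjusted p = 0.00393), and Cxadr, the epithelial ligand of the lymphocyte protein JAML, by 0.59 (adjusted p = 0.00982). Those 3 passed whichever array was left out. Il33, an alarmin, rose by 2.50 (adjusted p = 0.0105, and 0.0508 without control replicate 3), and Lgals9, which encodes galectin-9, fell by 0.61 (adjusted p = 0.0179, and up to 0.0712 without control replicate 2 or 3 or transgenic replicate 3). The last pair were named after their values were seen.

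Of 17 measured transcription factors and sensors that regulate such signals, 6 fell and 2 rose, with a median of -0.08. With sex as a term 5 fell and 1 rose. Without control replicate 2, control replicate 3 or transgenic replicate 3 the number that fell was 2, 3 and 3. Vdr, the vitamin D receptor, fell by 2.42 (adjusted p = 0.00517) and Irf1, an interferon-induced factor that acts on Il15 in other cells, by 1.65 (adjusted p = 0.00796). The dimmer Irf1 probe set was at -0.26. Rela, the NF-kappaB subunit, rose by 0.80 (adjusted p = 0.00557). Vdr, Irf1 and Rela passed whichever array was left out. Cdx2, an intestinal identity factor, fell by 0.82 (adjusted p = 0.017, and up to 0.0718 without control replicate 2 or 3 or transgenic replicate 3). The HNF4 factors were named after their values were seen: Hnf4g fell by 1.00 (adjusted p = 0.0105, and 0.0511 without control replicate 2), while Hnf4a, at -0.57, missed the threshold (adjusted p = 0.159).

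Markers of other cells were read beside these results. Of 19 measured markers of intraepithelial lymphocytes and T cells, 12 fell and 1 rose, with a median of -1.24. Itgae and Ccl5, already counted above in other lists, are counted among the 12 again. With sex as a term 7 fell, and with the replicate block 14 fell. Nkg7, a cytotoxic granule protein, fell by 2.53 (adjusted p = 0.00585) and Cd8a by 1.54 (adjusted p = 0.0129, and up to 0.0604 without control replicate 2 or 3 or transgenic replicate 3). The riser was Cd247, at 0.29, named after its value was seen, which was lost in the blocked fit (adjusted p = 0.0689), in the fit with sex (adjusted p = 0.0701) and, at up to 0.133, without any array but control replicate 1. The mean level of the list was 7.67 to 8.09 in the controls and 6.25 to 7.01 in the transgenic arrays. Without control replicate 2, control replicate 3 or transgenic replicate 3 the number that fell was 3 each time, and without transgenic replicate 1 it was 7. It was 13 without control replicate 1, where Xcl1, a chemokine of cytotoxic cells, passed (adjusted p = 0.0106, against 0.0579 with all arrays). The lymphocyte markers were highest in control replicate 1, the array in which Btnl1, Btnl2, Btnl4/Btnl6 and Il15 were lowest among controls, and the part of these markers in the members' results was not tested.

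Stromal and endothelial markers had mean levels of 6.01 to 6.33 in the controls and 6.03 to 6.22 in the transgenic arrays, and 1 of 12 passed with all arrays, Vim, which fell by 0.89 (adjusted p = 0.025, 0.0523 with sex as a term, and up to 0.0893 without control replicate 2 or 3 or transgenic replicate 1 or 3). Without control replicate 1 the fibroblast gene Dcn was higher by 0.78 (adjusted p = 0.0322), against 0.02 with all arrays (adjusted p = 0.986). Of 10 myeloid markers Fcer1g fell by 0.86 and Cd14 rose by 1.07 (adjusted p = 0.00664 and 0.0191, the second 0.0731 and 0.075 without control replicate 2 or transgenic replicate 3). With the replicate block the macrophage gene Cd68, at 0.41, passed as well (adjusted p = 0.0232, against 0.0985). None of 6 B cell or 10 tuft cell markers was called in limma or had an unadjusted p under 0.05, and those with the lowest p were Cd79b at 0.19 and Il17rb at -0.48. All values of the B cell genes Cd79a and Ms4a1 and of the macrophage gene Adgre1 lay within 4.07 to 5.06, the range given above for absent transcripts. All values of the stromal gene Lum lay below it. Those probe sets gave no measure of a difference. Of 12 epithelial markers 4 fell and 2 rose, with a median of -0.08, and with sex as a term 1 fell and 2 rose. Among them the keratin Krt18 rose by 1.47 (adjusted p = 0.00221) and the tight junction gene Tjp1 by 0.47 (adjusted p = 0.0175, and up to 0.0651 without control replicate 2 or 3 or transgenic replicate 1 or 3). None of the 4 falls held without control replicate 2 or 3 or transgenic replicate 3, and 1 and 2 held without transgenic replicates 1 and 2. The lists share genes, so their counts are not separate observations. Cdx1, Cdx2 and Vil1 are among the 4. Cdx1 and Cdx2 were also counted with the regulators above, and Vil1 is counted with the brush border genes below.

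Enterocyte brush border genes, like Btnl1, Btnl2, Btnl4/Btnl6 and Il15, were lowest among controls in control replicate 1 and lowest of all in transgenic replicate 1, by the median of their list. Of 19 measured, 2 fell and none rose, and 18 had lower means, with a median of -1.10. The fallers were Cubn, a vitamin B12 receptor, at -4.09 (adjusted p = 0.03), and Vil1, villin, at -0.80 (adjusted p = 0.0453). Both were lost without control replicate 2 or 3 or transgenic replicate 1 or 3, at up to 0.109 and 0.148. Cubn and Vil1 were also lost with sex as a term (adjusted p = 0.0603 and 0.0709). With the replicate block 15 fell, in a fit that called 5140 of all features against 3711 without the block. Without control replicate 1 or transgenic replicate 2 the number that fell was 5. Relative to the control mean, the median of the list was -0.62, 0.41 and 0.25 in the controls and -2.17, -0.34 and -0.87 in the transgenic arrays, and these groups overlapped. The part of this shift in the members' results was not tested beyond the values that follow.

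Each member was then set against that median on the same array, a measure added after the values were seen. Btnl1 stood at -1.39, -1.01 and -0.67 relative to it in transgenic replicates 1, 2 and 3 and between -0.10 and 0.12 in the controls. Ccl25 stood at -1.53, -0.91 and -1.99, against -0.48 to 0.60 in the controls. For Btnl4/Btnl6 and Il15 the mean differences were -0.52 and -0.50, again without overlap, though Il15 was separated by less than 0.03 between control replicate 1 and transgenic replicate 1. Btnl2 overlapped, at a mean difference of -0.24. The permutation p was 0.1 for Btnl1, Ccl25, Btnl4/Btnl6 and Il15 and 0.2 for Btnl2. It is not exact for this measure, because the list was centred on the labelled controls and not centred again for each split. As the measure was also chosen after the values were seen, these p-values only describe the overlap. Il15ra stood higher against the median by 1.56 and Il7 by 0.85, both without overlap. Cdh1 stood higher by 1.46 and Tslp by 1.08, both with overlap. The median itself differed by -1.14 between the groups, so a feature that does not change stands higher against it. These higher values are therefore no measure of a rise.

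**Figure D4:**
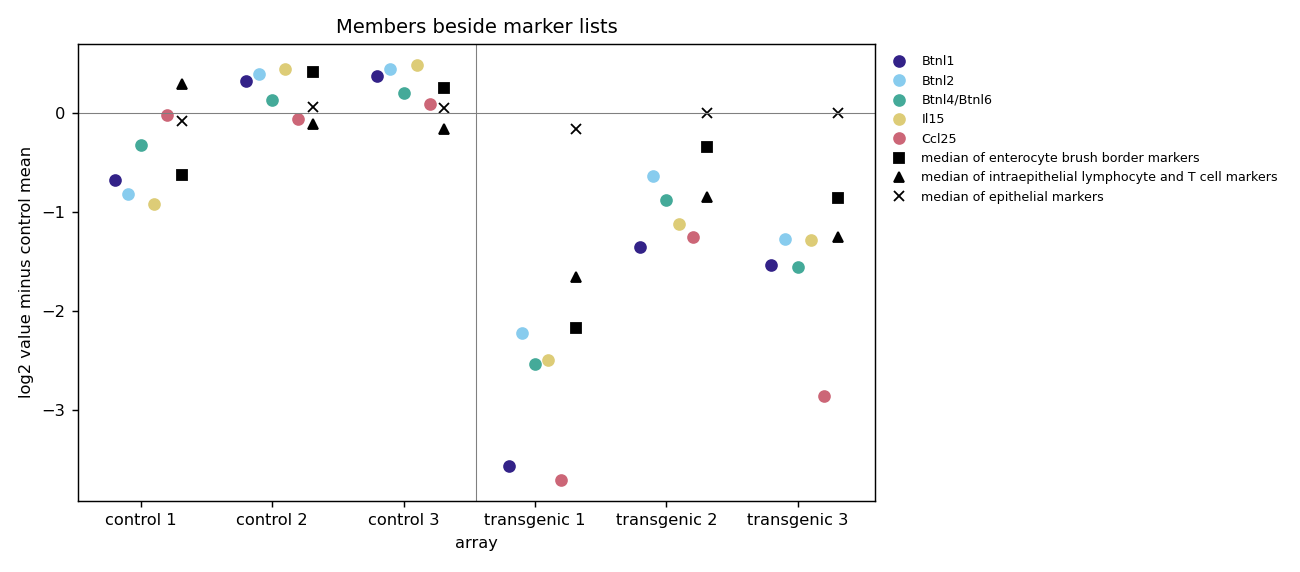
Log2 value minus the control mean (vertical axis) on each of the 6 arrays for 5 members (coloured points) and the medians of 3 marker lists (black symbols). Btnl1, Btnl2, Btnl4/Btnl6, Il15 and the brush border median are lowest among the controls in control replicate 1 and lowest of all in transgenic replicate 1, while Ccl25 differs by no more than 0.15 among the controls.

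The genes nearest in profile were found by the root mean square distance over the 6 arrays between values centred on each gene's own mean. Nearest to Ccl25 were Fmo4, a flavin monooxygenase, at 0.23 log2 units, the nuclear receptor gene Nr1i3 at 0.24, the bile acid transporter subunit Slc51a at 0.27, the zinc transporter Slc39a5 at 0.28 and the lipoprotein receptor gene Lrp1 at 0.29. All 5 were lower on every transgenic array than on any control, with transgenic replicate 2 the highest of the transgenic arrays, as in Ccl25. They were chosen for nearness to Ccl25 on these same arrays, so this likeness follows from the choice. Il15 and Btnl2 lay 0.19 apart, and Btnl2 was the 7th nearest of all features to Il15. Btnl1 lay 0.39 from Il15 and 0.43 from Btnl4/Btnl6, as the 210th nearest feature to Il15 and the 401st nearest to Btnl4/Btnl6. Il15ra lay closest among the members to Cdh1, at 0.18, though Cdh1 was only the 472nd nearest of all features to Il15ra.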

How the data were processed

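The authors deposited log2 values for each probe set and array, made with Partek and RMA per the submitters' processing notes, without versions. RMA scales the arrays to one distribution, so a shift of all transcripts is removed, and it compresses dim probe sets. That the scale is log2 was judged from the range of values. No build was stated in the sources used here. Of 28350 probe sets, 21780 named 1 gene, 1618 several and 4952 none here. Symbols were updated by gene identifier with RefSeq, assembly GRCm38.p6, which matched 21689. The brightest probe set stood for each of 19933 genes, and the probe set naming Btnl4 and Btnl6 was added as a further feature, a departure from the planned use of probe sets naming 1 gene. No dim probe sets were removed.

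Groups were compared in limma 3.58.1 (R 4.3.3; lmFit, eBayes, group alone, two-sided, Benjamini-Hochberg over all features, threshold 0.05). The fit was first tested on simulated data. Deviations from group means correlated by 0.52, 0.41 and 0.13 between arrays of the same replicate number. The number therefore entered as a block in an alternative. Between a control and a transgenic array of unlike number the correlations were -0.44 to 0.32. Control replicate 3 correlated more with transgenic replicate 2 (0.32) than with transgenic replicate 3 (0.13). The block was thus chosen from these data and not from the labels, which do not say what replicates of one number have in common. Deviations sum to 0 within a group, which makes these correlations depend on one another. The other alternatives were another choice of probe sets, filters at a mean of 6 and 7, renewed normalization, variance models, array weights, sex, a stricter threshold and each array left out.

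Members, lists and motifs were chosen with earlier results of these data known. Named genes were all members, Msi2 and Msi1, up to 3 genes past the threshold with the lowest p from each list (otherwise the one with the lowest p), and the 5 genes nearest in profile to the most changed member. Any other gene was named after its values were seen. Promoter sequences are those of RefSeq, GRCm38.p6. The number of arrays limits the precision.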

Additional observations from a re-analysis of the deposited data

How the results depend on the processing

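No member feature changed the sign of its difference in any of 149 values under 17 alternatives, while 15 passed that did not before and 22 no longer passed. The filters on a mean of 6 or 7 removed Il7 and Tslp. Of the 9 features 3 passed, and 6 did with the replicate number as a block, with array weights and without control replicate 1. None passed with sex as a term or at an adjusted p under 0.01, nor in limma without control replicate 2, control replicate 3, transgenic replicate 1 or transgenic replicate 3, so the count ranged from 0 to 6 with 1 array left out. At an unadjusted p under 0.05 the number was 6 with sex as a term and 4 to 6 in those 4 fits, against 7 with all arrays. Over all features 3711 were called, 5140 with the replicate block, 7073 with array weights, 2159 with sex as a term and 801 at 0.01. With 1 array left out the number was 951 to 5543, the highest without control replicate 1. With the replicate block, Btnl1, Btnl2, Il15 and Il15ra passed in addition and Cdh1 did not. Cdh1 also missed the threshold with filters, renewed quantile normalization and intensity trends (adjusted p = 0.0526 to 0.0957). Btnl1 passed with either filter and with either intensity trend (adjusted p = 0.0357 to 0.048), and Il15 with the filter at 7 (adjusted p = 0.0435). A fit with 1 array fewer has less power, and the causes of these shifts were not tested.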
